A study of Mus musculus with 2 samples.

Results

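The genes described here encode the proteins of the mitochondrial ribosome. They were chosen by name: protein-coding rows of both gene tables whose identifier maps, in the GENCODE M21 annotation on GRCm38, to a symbol that starts with Mrpl or Mrps and goes on with a digit. This rule found 77 genes, 48 Mrpl and 29 Mrps, among 21474 protein-coding rows and 69691 rows in all. The annotation holds 78 such genes, and Mrpl33 had no matching row and is not analysed here. The RNA came from the mouse erythroleukemia line MEL, immortal blood cells similar to red cell precursors that switch on hemoglobin when given dimethyl sulfoxide (DMSO). All cells had been in 2% DMSO for 5 days, and total RNA was sequenced in 2 libraries of this 1 condition. The labels call them biological replicates 1 and 2 but give both the same biosample record, and their spread may thus be technical in part. With 1 condition, values were compared between genes and between the libraries.

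Mitochondria carry a ribosome of their own, built on a pair of ribosomal RNAs from the mitochondrial genome and on proteins that the nucleus encodes. It makes the few respiratory chain proteins whose genes stayed in the mitochondrial genome, and it descends from a bacterial ribosome. Mrpl genes are named for the large subunit, which joins amino acids, and Mrps genes for the small subunit, which reads the mRNA. Part of the proteins have a bacterial counterpart, and part are found only in mitochondrial ribosomes. In red cell precursors mitochondria also make heme, and they are cleared when the cell matures.

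Estimated counts summed to 65109488 in replicate 1 and 90856320 in replicate 2. The 77 genes took 0.335% of all counts in replicate 1 and 0.305% in replicate 2, each gene with at least 735 counts in replicate 1 and 787 in replicate 2. All 10 erythroid markers had 1 TPM or more in each library, and 2 of 10 markers of other cells were, namely the platelet genes Pf4 and Itga2b. Epcam was at 0 counts in both, and Cd3e had 0 and 1. Levels are given as TPM, transcripts per 1000000 after division by effective length, over all rows of the table. Protein-coding rows held 134877 of the 1000000 TPM in replicate 1 and 129390 in replicate 2, and the rest lay in other RNAs, so a TPM value here is low in absolute terms and serves to rank genes within a library.

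Nearly every mitochondrial ribosomal protein gene was expressed, most of them above the bulk of expressed protein-coding genes. Of the 77 genes, 76 reached 1 TPM in both libraries, with a median in replicate 1 of 12 TPM and in replicate 2 of 9.40 TPM (10.7 ± 1.84, SD, n = 2). The 8003 protein-coding genes at 1 TPM or more in both libraries had medians of 4.84 and 3.99 TPM, and 67 of the 77 lay above the median of those genes. By mean TPM, 48 of the 77 were above the upper quartile of the same genes (8.87 TPM), 26 between the quartiles and 3 below the lower one (2.45 TPM). The genes lay on 17 chromosomes, with at most 11 on one, chromosome 11. The middle of the family was compact, with quartiles of mean TPM at 6.20 and 15.5. The extremes were far apart, since the highest gene stood 120-fold above the lowest. The order of the genes was nearly the same in both libraries, with a Spearman correlation of 0.98 across the 77 genes, which share libraries and annotated lengths.

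**Figure D1:**
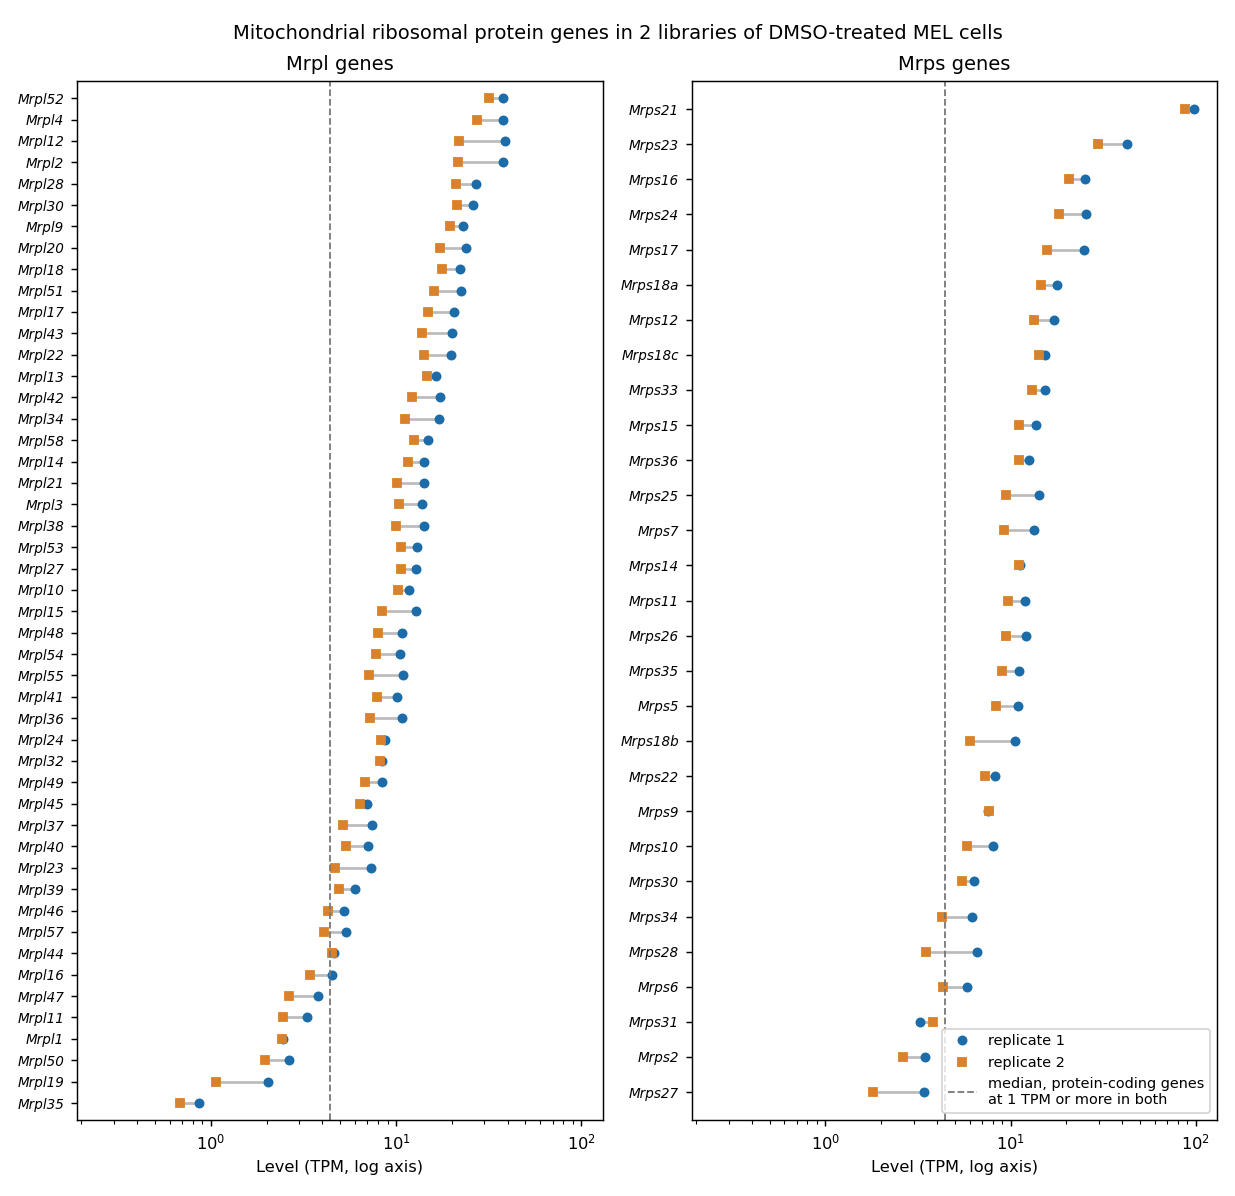
TPM of each of the 77 genes on a log axis, Mrpl genes on the left and Mrps genes on the right, ordered by mean; circles are replicate 1, squares replicate 2, and the dashed line is the median of the 8003 protein-coding genes at 1 TPM or more in both libraries. Mrps21 stands apart at the top with 97.1 and 87.1 TPM, and Mrpl35 lies lowest with 0.86 and 0.68.

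Mrps21, the counterpart of the bacterial small subunit protein S21, was the most abundant by far. It had 97.1 TPM in replicate 1 and 87.1 in replicate 2, from 6533 and 9793 counts, and in each library it was above every other member. Its ratio to the next gene in the same library was 2.51 ± 0.303 (SD, n = 2), and it held 9.25% ± 1.02 of the family's summed TPM. The gene (ENSMUSG00000054312) spans chromosome 3 from 95862634 to 95871519 on the minus strand, in the GRCm38 coordinates of the annotation. Next among the small subunit genes came Mrps23, a protein found only in mitochondrial ribosomes, with 42.2 and 29.6 TPM. Mrps16, the S16 counterpart, had 25.1 and 20.7 TPM, and Mrps24, the counterpart of bacterial S3, 25.4 and 18.2. Mrps17, the S17 counterpart, had 24.8 and 15.7 TPM. Mrps23 lay above the other 3 in both libraries, and the ranges of Mrps16, Mrps24 and Mrps17 overlapped.

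The highest large subunit genes were Mrpl52, Mrpl4, Mrpl12, Mrpl2 and Mrpl28, within a narrow span. Mrpl52, a mitochondria-specific protein, had 37.9 TPM in replicate 1 and 31.9 in replicate 2. Mrpl4, whose bacterial counterpart lines the tunnel through which the new protein leaves, had 38.0 and 27.5 TPM. Mrpl12, the counterpart of the L7/L12 stalk protein that draws translation factors to the ribosome, had 38.9 and 21.9 TPM. Mrpl2, the counterpart of a core protein near the site of peptide bond formation, had 37.8 and 21.5 TPM, and Mrpl28 had 27.1 and 21.2. The first 4 overlapped, with Mrpl12 on top in replicate 1 and Mrpl52 in replicate 2. Of the TPM of Mrpl2, 13.05 and 4.35 lay in a 212-nt transcript that the annotation does not type as protein-coding. That transcript held 3.39% and 1.48% of the gene's counts. The leading transcript of Mrpl2, typed protein-coding, had 23.45 and 16.49 TPM. By mean estimated count, which also scales with length, Mrpl4 led with 10376 and 12378 counts, followed by Mrpl12 with 10802 and 10019, though Mrpl12 was above Mrpl4 in replicate 1 and below Mrpl9, with 11256, in replicate 2.

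The lowest levels were also found in both subunits. Mrpl35, the L35 counterpart, was the only gene under 1 TPM, with 0.86 TPM from 735 counts in replicate 1 and 0.68 TPM from 972 counts in replicate 2. It spans chromosome 6 from 71812997 to 71826969 on the minus strand (GRCm38). Just above that threshold was Mrpl19, the L19 counterpart, with 2.04 and 1.07 TPM. Mrpl50, a mitochondria-specific protein, had 2.65 and 1.97 TPM, Mrpl1 2.47 and 2.42, and Mrpl11 3.31 and 2.47. In the small subunit the lowest were Mrps27, an RNA-binding pentatricopeptide repeat protein, with 3.40 and 1.80 TPM, and Mrps2, the S2 counterpart, with 3.47 and 2.63. Mrps31 had 3.26 and 3.81 TPM, Mrps6, the S6 counterpart, 5.81 and 4.30, and Mrps28 6.61 and 3.51. The remaining 38 Mrpl genes had mean TPM between 3.22 and 23.6, from Mrpl47 to Mrpl30, and the remaining 19 Mrps genes between 5.20 and 16.1, from Mrps34 to Mrps18a. None of these counts was near the detection limit, because a count of 0 would allow 3 counts per library, from counting error alone.

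To show the promoters of both extremes, the windows of the highest and lowest gene of each subunit that has 1 window in the table are printed here from RefSeq (build GRCm38.p6), each 250 bases before the transcription start to 50 after, 5′ to 3′ on the gene's strand. Capitals mark the letters CCGGAAG or its reverse complement CTTCCGG (the core that ETS factors such as GABPA bind), and AAGATGGCG or its reverse complement CGCCATCTT (bound by YY1). The windows are chr3:95871465-95871764 on the minus strand for Mrps21, chr13:99344536-99344835 on the plus strand for Mrps27, chr14:54426659-54426958 on the plus strand for Mrpl52 and chr6:71823735-71824034 on the minus strand for Mrpl35.
Mrps21: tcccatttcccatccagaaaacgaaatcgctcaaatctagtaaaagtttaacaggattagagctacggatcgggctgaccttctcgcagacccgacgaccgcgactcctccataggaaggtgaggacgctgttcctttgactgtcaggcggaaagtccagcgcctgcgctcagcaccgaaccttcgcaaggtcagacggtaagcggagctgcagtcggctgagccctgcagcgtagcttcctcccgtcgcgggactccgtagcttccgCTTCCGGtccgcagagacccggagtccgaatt
Mrps27: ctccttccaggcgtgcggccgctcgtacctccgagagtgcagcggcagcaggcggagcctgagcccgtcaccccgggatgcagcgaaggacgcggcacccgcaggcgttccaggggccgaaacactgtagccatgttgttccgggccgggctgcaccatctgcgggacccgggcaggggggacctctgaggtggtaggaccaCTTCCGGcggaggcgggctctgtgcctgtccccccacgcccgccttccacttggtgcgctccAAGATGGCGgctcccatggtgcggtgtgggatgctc
Mrpl52: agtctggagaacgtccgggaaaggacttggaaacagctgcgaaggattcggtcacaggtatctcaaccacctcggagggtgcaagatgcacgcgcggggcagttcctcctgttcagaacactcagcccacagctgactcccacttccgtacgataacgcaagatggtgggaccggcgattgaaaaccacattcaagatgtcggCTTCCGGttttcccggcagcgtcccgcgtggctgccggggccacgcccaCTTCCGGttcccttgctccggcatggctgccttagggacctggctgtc
Mrpl35: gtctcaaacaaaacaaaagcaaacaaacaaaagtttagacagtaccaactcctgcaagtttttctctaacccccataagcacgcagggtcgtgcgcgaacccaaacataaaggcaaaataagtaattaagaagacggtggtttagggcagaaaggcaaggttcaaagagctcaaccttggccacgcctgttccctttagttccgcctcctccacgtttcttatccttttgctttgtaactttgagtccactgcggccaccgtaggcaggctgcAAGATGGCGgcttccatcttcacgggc

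In Mrps21 the ETS word began 19 bases after the start, and in Mrpl52 there was one 47 bases before and another 3 after. Mrps27 held an ETS word 48 bases before and a YY1 word 15 bases after its start, and Mrpl35 a YY1 word 24 bases after. A window was given for 68 of the 77 genes (74 windows), and the searches covered both strands. The ETS word was found in 36.8% of the 68 genes, in 20.6% of the 9496 protein-coding genes tested for a library difference that have a window, and in 9.93% of all 27025 genes in the table. The YY1 word was in 11.8% of the family, 3.72% of those tested genes and 1.64% of all. Of the ETS matches in the family, 21 of 30 began within 50 bases of the start, as did 7 of 8 YY1 matches, against 58.1% and 66.3% of the matches in tested genes. The ETS and YY1 words can share 3 letters, but overlapped in 0 of the 74 windows.

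Of the other words, GCGCATGC, a core of the NRF1 site, was in 10.3% of the family against 6.18% of tested genes. CCAAT was in 38.2% against 43.4%, the E-box CACGTG in 7.35% against 11.7%, and GATAA, the core of GATA factor sites, in 25.0% against 19.5%. Of all 27025 genes, 3.05% held GCGCATGC, 41.1% CCAAT, 8.09% CACGTG and 28.4% GATAA. Only 1 of 20 GATAA matches in the family began within 50 bases of the start, against 21.3% of the matches in tested genes. Base composition of the windows was alike, with a median GC content of 58.8% in the family and 60.7% in tested genes. Family genes with an ETS word had a median of 14.2 TPM (25 genes) and those without one 8.53 (43 genes), while for YY1 the medians were 9.92 (8 genes) and 11.2 (60 genes). A match is a run of letters, not a bound site, and these shares are descriptions of sequence.

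The medians of large and small subunit genes differed by less than the spread between the libraries. In replicate 1 the Mrpl median was 12.3 and the Mrps median 12 TPM, in replicate 2 they were 9.21 and 9.40, and their ratio 1.00 ± 0.0323 (SD, n = 2). Counting Mrps18a and Mrps30 with the large subunit, where their proteins sit, the 28 large subunit genes with a bacterial counterpart had medians of 14.0 and 10.5 TPM, and the 22 mitochondria-specific ones 10.3 and 7.47. In the small subunit the 16 with a bacterial counterpart had medians of 12.7 and 10.4 TPM and the 10 mitochondria-specific ones 10.8 and 8.13. In each subunit and each library the median of genes with a bacterial counterpart was the higher, by less than the distance between the quartiles within either class. Mrps36, a small protein now known as a part of the oxoglutarate dehydrogenase complex rather than the ribosome, had 12.6 and 11.1 TPM, within the range of the others.

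Genes whose proteins sit together in the ribosome were not at equal levels. In the stalk that binds translation factors, Mrpl12, which is present in several copies per ribosome, had 38.9 and 21.9 TPM, while Mrpl10, which anchors it, had 11.8 and 10.3. The ratio of Mrpl12 to Mrpl10 was 3.30 in replicate 1 and 2.13 in replicate 2. That of Mrpl12 to Mrpl11, the stalk base, was 10.3 ± 2.05 (SD, n = 2). These ratios are in TPM, which divides by length: Mrpl11 is listed with 2882 nt and Mrpl12 with 1306 nt in replicate 1. By counts the gap was smaller, with 2179 and 2694 for Mrpl11 against 10802 and 10019 for Mrpl12. Mrpl1, on the opposite L1 stalk, which moves spent tRNA out, had 2.47 and 2.42 TPM and was lower than the stalk genes in both libraries.

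Around the exit tunnel, where new proteins pass to the inner membrane, the median over 8 genes was 7.15 TPM (replicate 1) and 5.65 TPM (replicate 2). Mrpl17 was highest with 20.6 and 14.8 TPM, followed by Mrpl22 with 19.8 and 14.1. Mrpl45, which tethers the ribosome to the membrane, had 6.95 and 6.36 TPM. Mrpl24 had 8.75 and 8.30, Mrpl23 7.34 and 4.69, Mrpl39 5.98 and 4.93 and Mrpl44 4.60 and 4.51. Mrpl47 was lowest with 3.77 and 2.66. Mrpl17 and Mrpl22 lay above the other 6 in both libraries, Mrpl45 lay above Mrpl39 in both, and the range of Mrpl23 overlapped those of Mrpl45 and Mrpl39.

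The central protuberance, which contacts the small subunit, was more even. Its 5 genes had a median of 12.8 TPM and 9.98, from Mrpl18 with 22.2 and 17.6 TPM down to Mrpl46 with 5.27 and 4.30. Between them lay Mrpl27 with 12.8 and 10.7, Mrpl38 with 14.1 and 9.98 and Mrpl48 with 10.7 and 8.02. Mrps12, the decoding centre protein, had 17.1 and 13.4 TPM. Mrpl58, a peptidyl-tRNA hydrolase that became a ribosome subunit, had 14.8 and 12.6.

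Mammals have 3 genes related to bacterial S18. Mrps18a, whose protein sits in the large subunit, had 17.7 TPM in replicate 1 and 14.5 in replicate 2. Mrps18c, at the bacterial S18 position, had 15.4 and 14.3 TPM. Mrps18b, elsewhere on the small subunit, had 10.6 and 6.06 and was the lowest of the 3 in each library, with Mrps18a above it by 2.04 ± 0.508 times (SD, n = 2). Mrps18a and Mrps18c differed by less than the spread between the libraries.

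Levels per length followed gene length. The 77 genes had a median length of 1031 nt, against 2344 nt for the 8003 protein-coding genes at 1 TPM or more. Across the 77 genes, Spearman's rho of length with mean TPM was -0.57, and with mean count it was 0.09; the 8003 genes gave -0.37 and 0.28. These are descriptions over genes, and TPM holds the length in its denominator. The 15 members under 700 nt had a median of 14.7 TPM and the 20 of 1400 nt or more 4.64. Mrpl35 shows the pattern at one end with 3715 nt, and Mrps21 at the other with 433 nt in replicate 1. Mrpl23, at 599 nt in replicate 1, was short and yet had only 7.34 and 4.69 TPM. Its 788 counts were the second lowest of replicate 1.

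**Figure D2:**
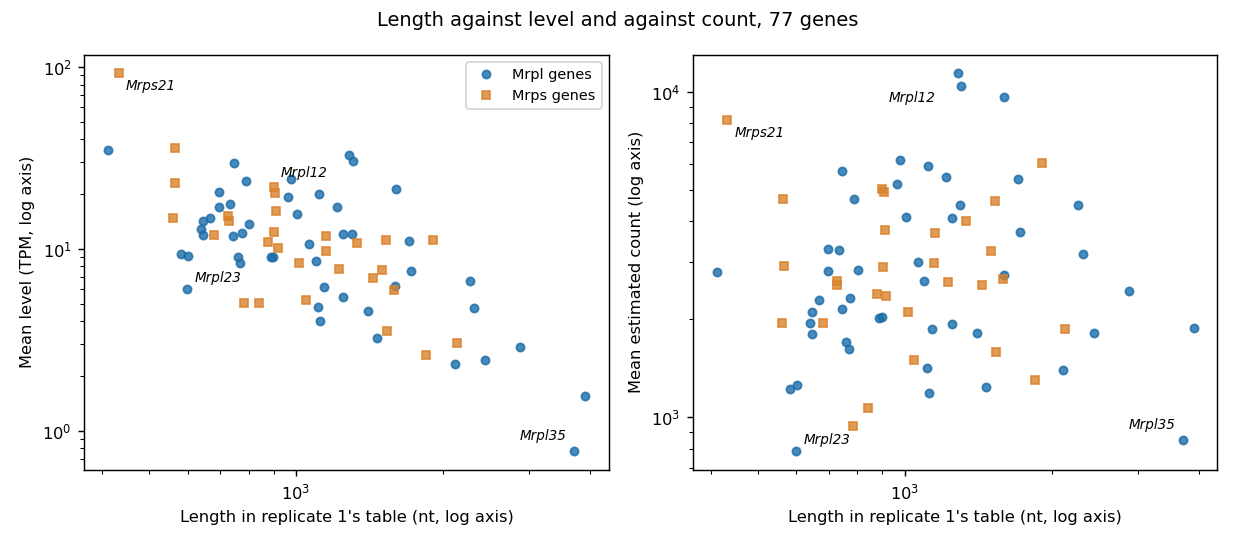
Length in the table of replicate 1 (nt) against mean TPM on the left and against mean estimated count on the right, all axes logarithmic, with circles for Mrpl and squares for Mrps genes. The points fall with length on the TPM scale (rho -0.57) and show no slope on the count scale (rho 0.09).

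Ribosome subunits under other symbols had higher medians than the family, and translation and assembly factors had lower ones. All 5 ribosome subunits named under other symbols reached 1 TPM, from Dap3, a GTP-binding small subunit protein, with 32.5 and 29.0 TPM down to Gadd45gip1, a large subunit protein, with 4.15 and 2.98, and their medians were 18.2 and 15.6. Of 13 translation factors 11 reached 1 TPM in each library, and the list's medians were 3.60 and 2.62 TPM. Tufm, the elongation factor that delivers aminoacyl-tRNA, led with 17.9 and 12.1 TPM, and Mtrf1, a release factor family member, was lowest with 0.30 and 0.26.

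Of 23 assembly and rRNA modification factors 20 reached 1 TPM, with medians of 4.88 and 3.28. Rbfa, which helps mature the small subunit, was the highest with 12.6 and 11.1 TPM. Mettl15, a methyltransferase of the small subunit rRNA, had 0.59 and 0.46, and Fastkd2 and Gtpbp10 were listed at 0 in both tables. Of 13 genes for mitochondrial transcription and its regulators 11 reached 1 TPM in both libraries. Myc, the growth regulator, was highest with 13.3 and 7.29 TPM, and Ppargc1a, a coactivator of mitochondrial genes, had 1 and 0 counts.

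Of the RNAs that this ribosome contains and reads, most were above the median of the family, and part were above all of it. The large subunit rRNA mt-Rnr2 had 690 TPM in replicate 1 and 329 in replicate 2, and the small subunit rRNA mt-Rnr1 98.8 and 24.2. The 13 mitochondrial mRNAs had medians of 90.9 and 63.1 TPM. In both libraries 12 of the 13 were above the family's median and 6 above Mrps21, as was mt-Rnr2, while mt-Rnr1 was above Mrps21 in replicate 1 only. They ran from mt-Co1, a cytochrome oxidase subunit, with 673 and 575 TPM to mt-Nd6, a complex I subunit, with 11.9 and 5.18. Whether rRNA was removed before sequencing is not given in the sources used here, so the rRNA level has no reading as a ribosome number.

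Cytosolic ribosomal protein genes, the counterpart for the ribosomes outside mitochondria, were much higher. The 85 protein-coding genes with Rpl or Rps symbols had medians of 278 and 263 TPM, and the ratio of their median to that of the mitochondrial genes was 23.2 in replicate 1 and 27.9 in replicate 2 (25.6 ± 3.36, SD, n = 2). They took 5.79% ± 0.415 of all counts, against 0.320% ± 0.0211 for the mitochondrial ribosomal protein genes. Still the ranges met: 10 of the 85 lay below Mrps21. Among those 10 were Rpl10l, Rpl39l and Rpl3l, listed at 0 and related copies of other Rpl genes, and Rps19bp1, whose name marks a binding partner. The others were Rpl22l1, Rpl7l1 and Rps27l, also related copies of Rpl or Rps genes, and Rpl29, Rpl21 and Rpl5. Without cytosolic paralogs, an alternative chosen after seeing the data, the ratio of medians was 28.6.

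**Figure D3:**
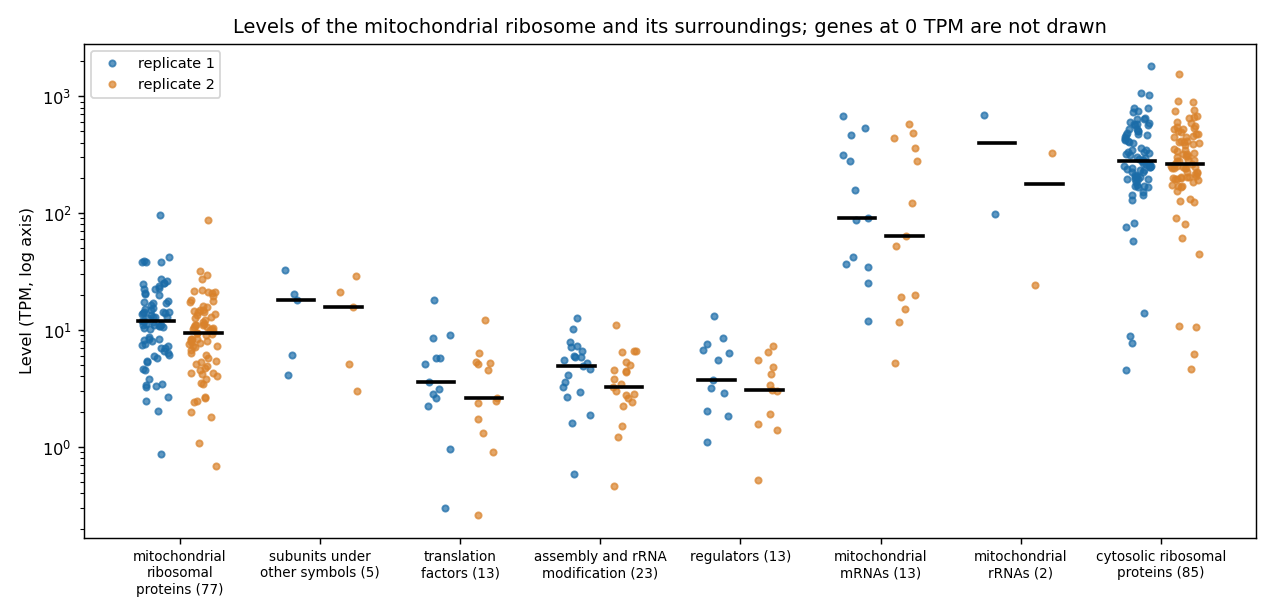
TPM on a log axis for the 77 genes and 7 other groups, with the number of genes in brackets; each dot is a gene in 1 library, and black bars are medians that include genes at 0. The mitochondrial ribosomal proteins (medians 12 and 9.40 TPM) have higher medians than the translation and assembly factors and lower ones than the mitochondrial mRNAs (90.9 and 63.1) and cytosolic ribosomal proteins (278 and 263).

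Differences between the libraries were measured on counts scaled by the trimmed mean of M-values, as the log2 ratio of replicate 2 over replicate 1, and tested gene by gene with an exact two-sided binomial test, Benjamini-Hochberg adjusted over 15275 genes. This test compares the reads of these 2 libraries, not conditions, and knows counting error only. At an adjusted p under 0.05 and a 2-fold difference, 0 of the 77 genes were called, where 6.49% of all tested genes were (2.42% higher and 4.08% lower in replicate 2). Among the 8003 protein-coding genes at 1 TPM or more in both, which leave out most low counts, 1.19% were called, so that a count of 0 in 77 is near the background. An unadjusted p under 0.05 was found for 56 of the 77, for 64.6% of all tested genes and for 79.8% of the 8003. In bulk RNA such as this, fewer cells of a type and less RNA per cell cannot be told apart.

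At a 1.5-fold difference, with the same adjusted p, 2 members were lower in replicate 2 and 0 higher, against 9.77% and 6.36% of all tested genes and 3.84% and 4.47% of the 8003. They were Mrps28, the counterpart of bacterial S1, with 1003 counts in replicate 1 and 876 in replicate 2, and Mrps27, with 1390 and 1220, although replicate 2 was sequenced deeper. The log2 ratio of Mrps28 was -0.65 (95% interval -0.78 to -0.51, adjusted p = 2.51e-21, exact binomial test), and that of Mrps27 was -0.64 (-0.75 to -0.53, adjusted p = 1.19e-28, exact binomial test). Mrps18b with -0.56, Mrpl12 with -0.56 and Mrpl23 with -0.45 came next. At the other end Mrps31 had 1087 and 2098 counts and a log2 ratio of 0.50, the highest of the family. By adjusted p alone, 39 of the 77 were lower in replicate 2 and 14 higher, and 24 did not pass, where 30.5% of all tested genes were lower and 31.5% higher, and of the 8003 33.2% and 44.9%.

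The differences leaned one way. The median log2 ratio of the 77 genes was -0.11, with 57 below 0 and 20 above (74.0% below 0), while 48.0% of the 12107 tested protein-coding genes were below 0, with a median of 0.02, and 43.8% of the 8003, with a median of 0.04. Mrpl genes had a median of -0.11 and Mrps genes of -0.08. The cytosolic ribosomal protein genes went the other way, with a median of 0.18 and 71 of 82 tested genes above 0. The same lean appears in TPM, where 75 of 77 genes were lower in replicate 2 and the median log2 ratio of TPM was -0.39. There most genes shift, since 80.0% of the 8003 protein-coding genes at 1 TPM or more were lower too, with a median of -0.26.

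Other groups moved more between the libraries, and their part in the lean of the family was not tested. Of the 10 erythroid markers 7 were called higher in replicate 2 and their summed level went from 6548 to 13679 TPM; of the 10 other markers 4 had enough counts to be tested and 1 was called, Itga2b, higher, and the summed level of the 10 went from 45.4 to 44.0 TPM. The mitochondrial rRNA mt-Rnr1 was called lower with a log2 ratio of -1.76, and mt-Rnr2 had -0.79. Of the 13 mitochondrial mRNAs only mt-Nd4l was called, lower with -1.26, though its count is uncertain, with a posterior standard deviation of up to 21.1% of it. The counts of mt-Co3 and mt-Co2, both above Mrps21 in TPM, are uncertain too, with up to 43.8% and 20.5%. Of the translation factors 0 of 13 were called and of the assembly factors 0 of 21 tested. Pprc1, a coactivator related to Ppargc1a, was called lower with -1.03, from 7020 counts in replicate 1 and 4691 in replicate 2.

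**Figure D4:**
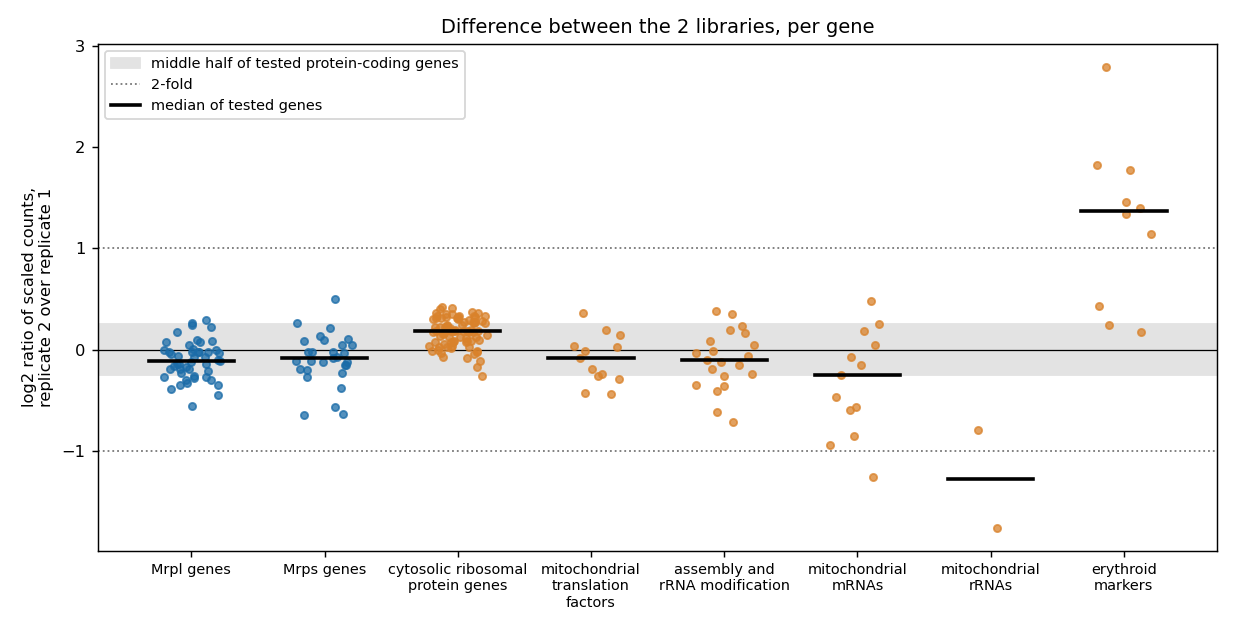
Log2 ratio of scaled counts, replicate 2 over replicate 1, for each tested gene of 8 groups; black bars are medians, the grey band spans the quartiles of all tested protein-coding genes and dotted lines mark 2-fold. All Mrpl and Mrps genes lie inside the 2-fold lines, with medians of -0.11 and -0.08, while the erythroid markers reach 2.79.

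Each gene's level is a sum over its transcripts, and for a part of the family the most abundant transcript was not one typed as coding. The 77 genes have 275 transcripts in the tables; 19 genes have 1, which for Mrpl32 is typed as a target of nonsense-mediated decay, and 58 have several and reached 1 TPM in both libraries. The leading transcript, the one with the highest percent of the gene's TPM, was the same in both libraries for 56 of 58 (96.6%), against 5628 of 6058 protein-coding genes (92.9%). The exceptions were Mrps17, led by a transcript with 22.2% in replicate 1 and by another with 32.3% in replicate 2, and Mrpl1, where 52.8% and 51.5% were split between a pair of coding transcripts. Mrps17 was also the least concentrated gene of the family, followed by Mrps5 with 35.5% and 30.1% in its leader, Mrpl24 with 33.9% and 35.2%, Mrps10 with 42.3% and 42.7% and Mrps33 with 41.4% and 43.7%.

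In 12 of the 58 genes (20.7%) the leader in both libraries was a transcript that GENCODE M21 does not type as protein-coding, against 446 of 6058 protein-coding genes (7.36%). For 5 genes it was typed as a retained intron, a transcript with sequence that is intron in the coding transcript: Mrps26, Mrps25, Mrpl39, Mrpl51 and Mrps5. For 4 it was typed as a target of nonsense-mediated decay, which removes RNAs with an early stop: Mrpl3, Mrps14, Mrpl13 and Mrps11. For Mrpl15, Mrpl47 and Mrpl23 it was a processed transcript, one with no open reading frame assigned.

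Among these genes Mrps26 had the leader with the largest share of TPM. Its retained-intron transcript held 91.5% of the gene's TPM in replicate 1 and 90.0% in replicate 2, and 70.1% and 66.3% of its counts. The rest lay in the coding transcript, the only other one of the gene, with 4278 nt against 1057 nt for the leader. Reads across the intron were not counted, so these are estimated transcript shares and not a measure of intron retention. Mrps25 had 72.2% and 76.4% of TPM in its retained-intron transcript but only 29.8% and 29.4% of counts. In Mrpl3 the decay-typed transcript held 67.5% and 68.4% of TPM and 72.9% and 68.0% of counts.

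By counts fewer genes had such a leader. Leaders chosen by percent of counts were not typed protein-coding in 4 of 58 genes (6.90%), namely Mrps26, Mrpl3, Mrpl15 and Mrpl23, against 3.86% of the 6058. The 12 leading transcripts had a median length of 696 nt and the longest coding transcripts of the same genes 3182 nt. TPM divides by effective length, and counts do not. Over all 58 genes, transcripts typed protein-coding held 79.0% of the summed TPM in replicate 1 and 80.3% in replicate 2, and retained introns 9.61% and 9.23%. Over the 6058 genes these shares were 81.6% and 82.8%, and 9.85% and 10.1%, so for these types the family was near the background. Transcripts typed as targets of nonsense-mediated decay held 4.68% and 5.08% of the family's summed TPM, against 2.41% and 1.91% over the 6058 genes. Processed transcripts held 6.64% and 5.37%, against 5.37% and 4.56%. The types come from a later annotation than the one the authors counted on.

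**Figure D5:**
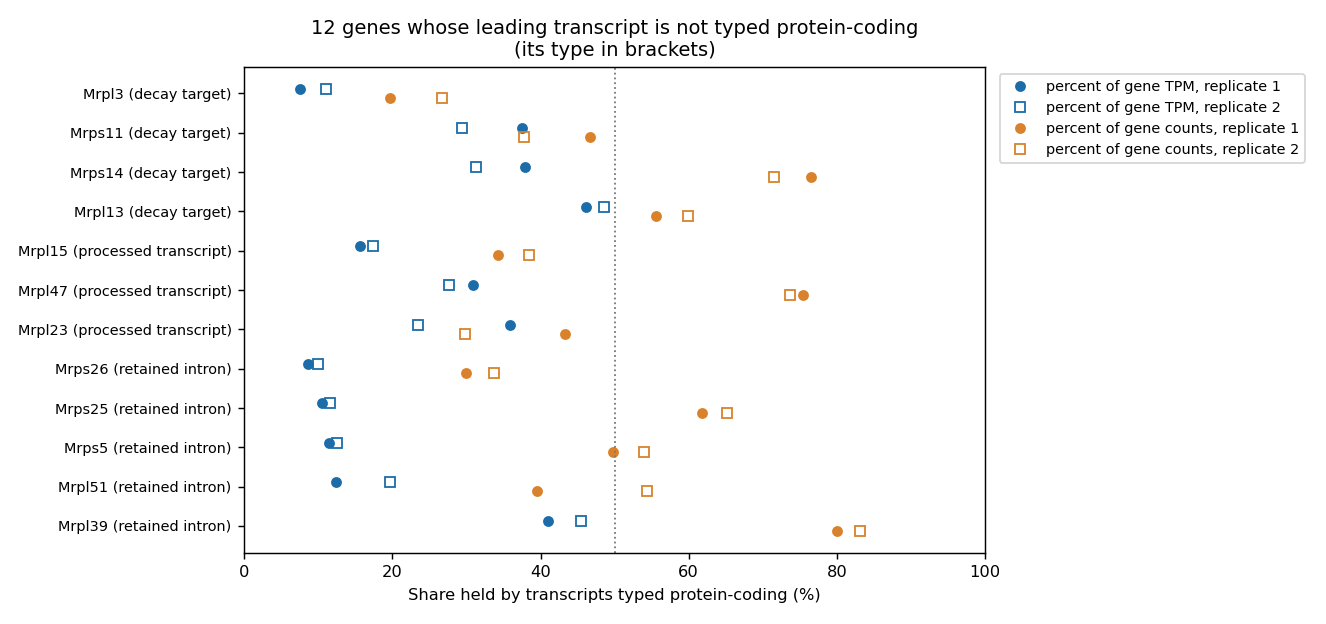
Share of each gene held by its transcripts typed protein-coding, for the 12 genes led by another type (given in brackets), as percent of TPM and percent of counts in each library; the dotted line marks 50%. All 12 lie under 50% by TPM in both libraries, while by counts 5 do so in both.

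The junctions that the retained-intron leaders run through are printed here because these exon-intron boundaries are joined in the leaders and cut in the coding transcripts. Letters are 5′ to 3′ on the gene's strand of GRCm38, read from the GENCODE M21 transcripts, and capitals mark the first or the last 2 bases of the intron, the GT and AG that the spliceosome recognises. The Mrps26 leader keeps the whole of intron 2 of the coding transcript, 80 nt at chr2:130564228-130564307 on the plus strand. The leaders of Mrpl39 and Mrpl51 run from the exon into intron 2, at chr16:84732482-84734406 on the minus strand and chr6:125192627-125193222 on the plus strand. Those of Mrps25 and Mrps5 begin in an intron and run into the next exon, at intron 2, chr6:92175797-92178709 on the minus strand, and intron 7, chr2:127598277-127600011 on the plus strand. All 5 introns lie inside the coding region. Total RNA can also hold RNA not yet spliced, and its reads were not told apart from those of retained introns.
Mrps26 donor: gcaggagctacgGTgcgagaggcccggg
Mrps26 acceptor: gtcttgcccctcgcAGgatagcgaggtt
Mrpl39 donor: gttgtgccatgcGTaagcagcagaacaa
Mrpl51 donor: ttggaatcctggGTaggacgcgattcct
Mrps25 acceptor: tgcctcttgtttgcAGattctggggagc
Mrps5 acceptor: gccttttctttgaaAGgttttgctattg

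Many of the genes start back to back with another gene. Of the 77, 18 (23.4%) had the start of a protein-coding gene on the opposite strand within 1000 bp upstream, against 11.1% of the 12107 tested protein-coding genes. In 14 of the 18 pairs the mitochondrial ribosomal protein gene was the higher by mean TPM. Mrps12 and Sars2, the mitochondrial seryl-tRNA synthetase, start 172 bp apart, and Mrps12 had 17.1 and 13.4 TPM against 1.62 and 1.41 for Sars2. Mrpl49 went the other way, with 8.39 and 6.79 TPM against 300 and 267 for Fau, which encodes a cytosolic ribosomal protein and starts 59 bp away. Mrpl2 had 37.8 and 21.5 TPM and its partner Klc4, a kinesin light chain, 1.15 and 1.5. Mrpl32 had 8.42 and 8.20 against 41.0 and 37.7 for the proteasome gene Psma2. None of the 18 partners was called between the libraries, by the exact binomial test at 2-fold. Of all tested genes 6.49% were called, and of the 8003 1.19%, so that a count of 0 in 18 is near the background.

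Exons of 28 of the 77 genes (36.4%) overlap exons of a gene on the other strand, against 32.4% of tested protein-coding genes. Mrps11 and Mrpl46, with 12 and 9.72 TPM and 5.27 and 4.30 TPM, overlap each other. Whether the authors' counting used strand is not given in the sources used here, and without strand the reads of such a pair cannot be told apart. The authors' posterior standard deviation of the count was 0 in both libraries for 63 genes and at most 3.47% of the count, in Mrpl23.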

How the data were processed

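Total RNA of MEL cells in 2% DMSO for 5 days was measured in 2 libraries of 1 group, with a size range of 300 to 350 bases per the labels. Mrpl4, of 1285 nt, had effective lengths of 1131 nt in replicate 1 and 1124 nt in replicate 2. That is a smaller reduction than fragments of the labelled size would give. The authors worked on mm10 with GENCODE M4, per the deposited readme files; which aligner and quantifier they ran is not given in the sources used here. The deposited tables hold, per the file headers, an estimated count, TPM, FPKM and a posterior mean and standard deviation (a score in counts) per gene, and for each transcript its percent of the gene's TPM.

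Names, types and coordinates came from GENCODE M21, by identifier without version (42462 of 43346 Ensembl rows matched). Estimated counts were rounded to whole numbers and scaled by TMM (edgeR 4.0.16, R 4.3.3). Genes with at least 10 counts in either library were tested with an exact binomial test (scipy 1.17.1), with a pseudocount of 0.5 in log2 ratios and exact 95% intervals. The test was checked on simulated data with counting error only, a check that does not cover the wider spread between these libraries. Between the libraries, chi-square per degree of freedom was 386 and the biological coefficient of variation 0.215 (edgeR). They are thus not 1 library deposited under both names. The intervals are binomial intervals on reads and cover counting error alone. No molecular identifiers are named in the labels.

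The members, gene lists and motifs were chosen with earlier results of these data known. The genes named are the 5 highest and 5 lowest of each subunit by mean TPM, those under 1 TPM, called genes, the 5 with the smallest leading transcript share, the role lists, and of each pathway list the highest, the lowest and any called. The 3 genes next to the 1.5-fold calls, the 12 genes led by a transcript not typed protein-coding, Mrpl32, Mrpl9 and the neighbour pairs were picked after their values were seen. Protein sequences of the S18 genes were not used here.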

Additional observations from a re-analysis of the deposited data

How the results depend on the processing

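Of 52 alternatives, 42 stayed within the spread of the libraries or within 1.5 times the count, 10 moved and 0 reversed. The 42 include levels, ratios and shares with 1 library left out. These had to stay, since either of 2 values lies within 1 SD of their mean, so they say nothing about stability. The median level of the 77 genes was 43.0 in FPKM, 82.4 in TPM over nuclear protein-coding genes only and 36.0 in counts per kb and 1000000 counts, and 9.40 to 12 TPM with 1 library left out. The number called between libraries was 0 with DESeq2 1.42.0 size factors, total counts, other count minimums and posterior mean counts, and 2 at 1.5-fold. The median log2 ratio was -0.33 on log2(TPM + 1), a scale on which most expressed protein-coding genes were lower in replicate 2. Summed TPM in place of medians gave 1.43 for large over small subunit and 29.0 for cytosolic over mitochondrial genes, against 0.980 to 1.03 and 23.2 to 27.9 for medians with 1 library left out. The share of the library was 0.101% of TPM and 0.476% of protein-coding counts, and 0.305% to 0.335% of counts in either library alone. Leaders not typed protein-coding were 12 of 58 by TPM and 4 by counts. Alternatives with counts per kb, without cytosolic paralogs and for such leaders were chosen after seeing the data. No paired analysis was possible because there is 1 group, and without either library no difference between them can be computed. Depth limits none of the 77 levels, since each rests on 735 counts or more, but 2 libraries give a rough SD.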
